A study of Mus musculus with 14 samples.

Results

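The p53 pathway was followed here through 10 of its genes, which were 10 of the 54532 genes in the count table of this series. They were chosen by symbol as known p53 targets and growth arrest genes, and all 10 passed the filter on low counts that left 17874 genes for testing. The series holds bulk RNA-seq of whole liver tissue from C57BL/6J mice aged 52 weeks that had or lacked Abcb11, the canalicular pump that exports bile salts from hepatocytes. Tumour tissue of female Abcb11-/- mice gave 3 libraries, non-tumour tissue of female Abcb11-/- mice gave 3, and liver of wild-type females gave 2. Liver of male Abcb11-/- mice gave 3 libraries, and liver of wild-type males gave 3. The knockout is given only as Abcb11-/-, with no account of the part of the gene removed. The notes say that 3 mice were used per group, but wild-type female number 1 has no library among the samples listed. The libraries were labelled as separate samples of a group, and p-values measure only the spread between them. The labels do not say whether tumour and non-tumour libraries of equal number came from the same mouse, and the main tests treat them as separate.

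The transcription factor p53, encoded by Trp53, is held low by the ubiquitin ligase Mdm2 and is stabilised by DNA damage and other stress. It is controlled mostly through protein stability, so its RNA level says little of its activity. Active p53 binds a pair of short repeats near its target genes and raises brakes on the cell cycle such as Cdkn1a, inducers of cell death such as Bax and Bbc3, and its own inhibitor Mdm2. In liver the pathway is known for its part in regeneration, in the response to toxic injury and as a barrier to tumours.

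Abcb11 itself ran at 18 to 34.3 CPM (counts scaled to library size) in tumour, 17.9 to 35.9 CPM in non-tumour and 270.2 to 489 CPM in wild-type female libraries, and at 62.1 to 104 CPM in knockout male and 298 to 322 CPM in wild-type male libraries. CPM were computed on libraries scaled by the trimmed mean of M values (TMM), and the libraries held 14745140 to 19480538 counts. The hepatocyte gene Alb had at least 299155 counts in every library. Mitochondrial genes held 15.7% of the counts in knockout male 3, 16.7% in non-tumour 3 and 19.1% in non-tumour 1. They held 28.6% to 42.2% in the other libraries, and the part of this share in the levels below was not tested. A further pair of features set libraries apart and recurs beside the results. The first is the daily clock: a score, the mean log2 CPM of 6 genes that peak around dusk (Per1, Per2, Per3, Dbp, Ciart and Nr1d2) minus that of 4 that peak around dawn (Arntl, Npas2, Clock and Nfil3), was −0.35, 2.36 and 4.12 in tumour libraries 1, 2 and 3, −0.67, 3.00 and 4.67 in non-tumour libraries 1, 2 and 3, and 1.35 and 0.84 in wild-type females 2 and 3. It was 3.32, 2.46 and 2.92 in knockout males against −2.64, −1.74 and −1.96 in wild-type males, so the male groups did not overlap. The hour at which livers were taken is not given in the sources used here. The second is wild-type male 3, where 10 lymphocyte markers summed to 532 CPM, against 19.1 and 13.7 CPM in wild-type males 1 and 2 and at most 89.8 CPM in the other libraries. In whole tissue, fewer cells of a type and less RNA per cell cannot be told apart.

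**Figure D1:**
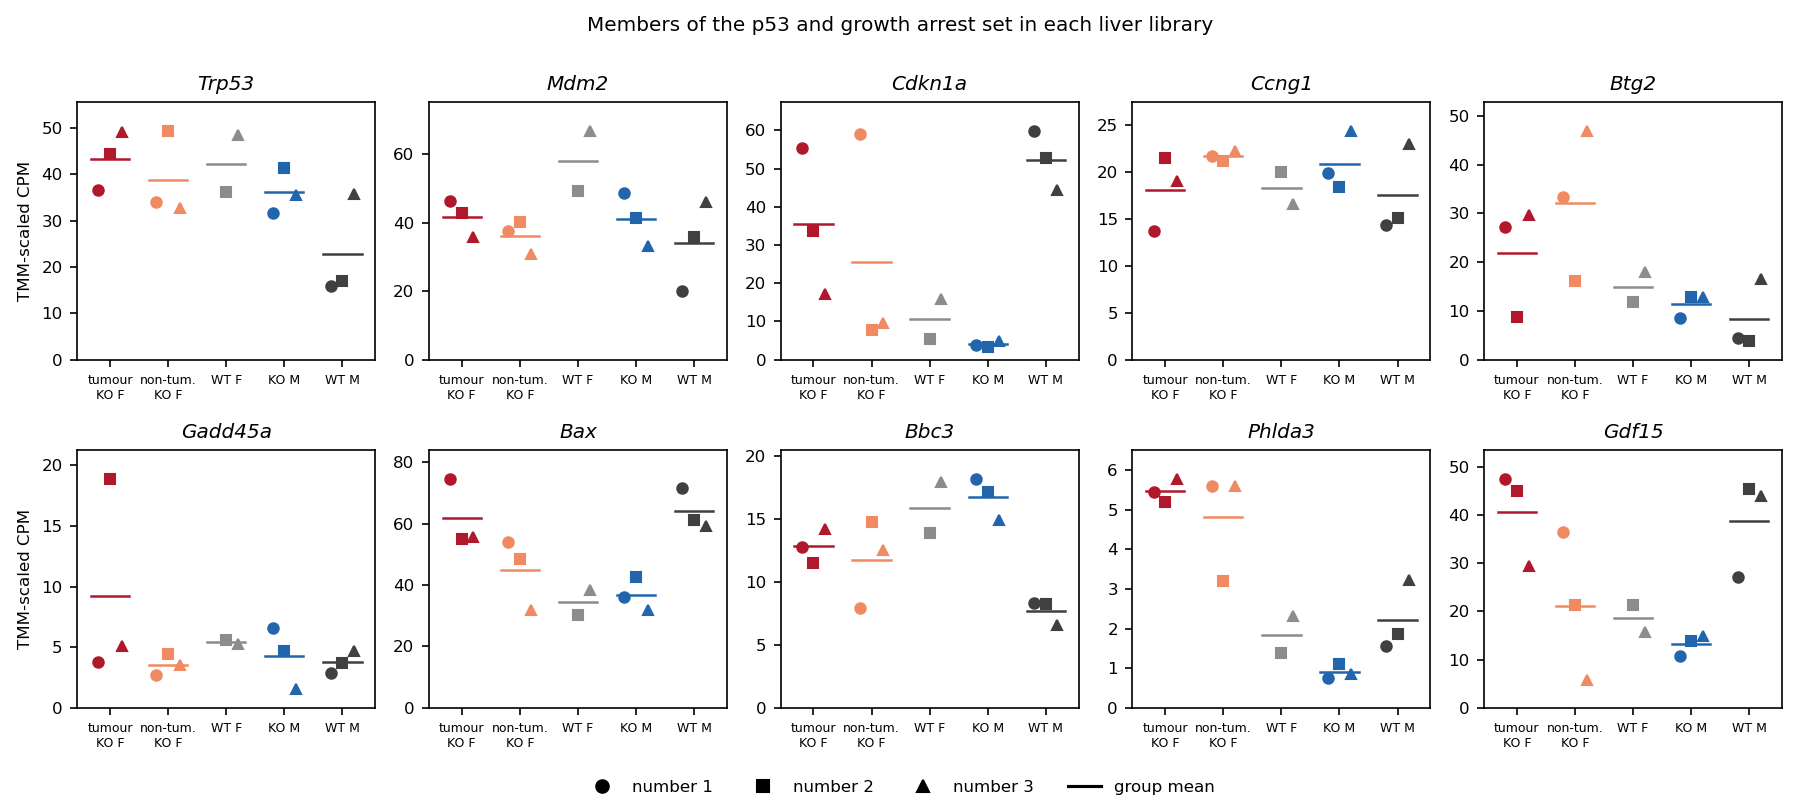
TMM-scaled CPM of each of the 10 genes (vertical axis) in the 14 liver libraries, grouped along the horizontal axis as tumour, non-tumour and wild-type female, then knockout and wild-type male. Symbols give the library number and lines the group mean. Cdkn1a lies at 3.36 to 4.81 CPM in knockout males and at 44.4 to 59.9 CPM in wild-type males, and Phlda3 is at or above 3.20 CPM in every knockout female library.

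Per kilobase of gene length, the scale on which levels of different genes may be compared, Bax averaged 31.3 CPM per kb over the 14 libraries, Gdf15 14.6, Trp53 8.97 and Mdm2 8.09. Cdkn1a averaged 7.50 CPM per kb, Btg2 6.54, Bbc3 6.01 and Ccng1 5.51, while Gadd45a and Phlda3 were the scarcest at 2.98 and 2.01 CPM per kb. On GRCm38, as the deposited annotation places them, Cdkn1a (ENSMUSG00000023067) spans chr17:29090976-29100727 on the plus strand and Bax (ENSMUSG00000003873) chr7:45461697-45466898 on the minus strand. Bbc3 (ENSMUSG00000002083) spans chr7:16308393-16318205 on the plus strand, Phlda3 (ENSMUSG00000041801) chr1:135766119-135769136 on the plus strand and Gdf15 (ENSMUSG00000038508) chr8:70629393-70632456 on the minus strand. The lowest count of any of these genes was 10 reads, of Phlda3 in knockout male 1.

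Cdkn1a encodes p21, the inhibitor of cyclin-dependent kinases through which p53 halts the cell cycle, and its promoter is a textbook binding region of p53. RefSeq promoters (GRCm38.p6, 250 bases before to 50 after each start) were found for 10 of 10 genes in 14 windows. They were searched for the 20-base p53 consensus with no spacer, allowing up to 2 mismatches but none at the core C and G of its repeats, and since the consensus reads the same on both strands 1 search covers both. Windows of 2 genes, Cdkn1a and Ccng1, held a match, as did 107 of 32851 promoters in the whole table (0.326%). The simpler core, CATG followed by any 6 bases and CATG again, which overlaps the consensus, was in a window of Cdkn1a alone of the 10 genes and in 234 of 32851 promoters (0.712%). Both stretches are shown because Cdkn1a had the largest fold change of the set in males and Ccng1 passed no test, with capitals marking the match, which starts 51 bases before the upstream RefSeq start of Cdkn1a and 195 bases before that of Ccng1. Cdkn1a has a second window at chr17:29093519-29093818, which held no match. A match in these windows is a string of letters and not a mapped site, and the lack of one in the other 8 genes says only that these letters are not in those windows. Both are printed from 5′ to 3′ on the strand of the gene.
Cdkn1a, plus strand, chr17:29090729-29090975: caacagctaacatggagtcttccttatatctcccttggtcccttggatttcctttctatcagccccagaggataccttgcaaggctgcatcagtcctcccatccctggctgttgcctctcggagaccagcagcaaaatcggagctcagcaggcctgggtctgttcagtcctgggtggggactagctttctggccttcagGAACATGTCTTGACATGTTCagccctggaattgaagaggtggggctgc
Ccng1, minus strand, chr11:40755312-40755536: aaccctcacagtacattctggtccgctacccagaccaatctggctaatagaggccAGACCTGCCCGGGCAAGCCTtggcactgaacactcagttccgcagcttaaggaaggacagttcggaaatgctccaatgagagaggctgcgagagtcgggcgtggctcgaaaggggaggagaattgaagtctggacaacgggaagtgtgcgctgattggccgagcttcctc

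Cdkn1a was the gene of the set that differed most between knockout and wild-type males. It had 3.79, 3.36 and 4.81 CPM in knockout male livers 1, 2 and 3, against 59.9, 52.9 and 44.4 CPM in wild-type male livers 1, 2 and 3. The groups lay far apart, with 46 to 85 raw counts in knockout and 739 to 926 in wild-type males. The means were 3.99 ± 0.741 CPM (SD, n = 3) in knockout and 52.4 ± 7.78 CPM (SD, n = 3) in wild-type males, and Cdkn1a fell with a log2 fold change of −3.71 ± 0.79 (SE), about 13.1-fold lower, at an edgeR adjusted p of 0.00736. The call held without any single library, where the log2 fold change ran between −3.94 and −3.60. Ccng1, the other gene with a consensus match, encodes cyclin G1, a p53 target that acts with protein phosphatase 2A on Mdm2. Its levels were 18.3 to 24.4 CPM in knockout and 14.4 to 23.0 CPM in wild-type males, which overlapped, and it passed the test in none of the 7 comparisons made here.

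Of the 10 genes, 4 passed the test when knockout males were set against wild-type males (edgeR, adjusted p under 0.05), against 20.6% of all 17874 genes tested. Bbc3 was higher and Cdkn1a, Bax and Gdf15 were lower, while over all genes 14.3% were called higher and 6.32% lower. Knockout and wild-type male libraries did not overlap for 5 of the 10 genes, against 35.3% of all genes. The median log2 fold change was 0.21 over the 10 genes and 0.11 over all genes tested. Scaling by DESeq2's or by upper-quartile factors moved the median of all genes by −0.11, to 0, and the directions of the 4 called genes were the same under both.

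The cell death genes of the set split. Bax, which permeabilises the outer mitochondrial membrane, had 36.0, 42.5 and 31.8 CPM in knockout males against 71.6, 61.1 and 59.4 CPM in wild-type males. All knockout libraries were below all wild-type ones, and Bax fell with a log2 fold change of −0.80 ± 0.23 (SE; edgeR adjusted p = 0.0220). Bbc3 encodes PUMA, a BH3-only protein that triggers Bax, and had 18.1, 17.1 and 14.9 CPM in knockout males against 8.28, 8.23 and 6.56 CPM in wild-type males. Here the order was turned round, and Bbc3 rose with a log2 fold change of 1.12 ± 0.25 (SE; edgeR adjusted p = 0.00677), a call that held without any single library. The call for Bax was lost without knockout male 1 (edgeR adjusted p = 0.0695) or knockout male 3 (edgeR adjusted p = 0.0823).

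Gdf15, a secreted stress hormone that p53 and the integrated stress response both induce, had 10.7, 13.8 and 15 CPM in knockout males against 27.2, 45.4 and 43.8 CPM in wild-type males. Wild-type male 1 was the lowest of its group and still above every knockout library. Gdf15 fell with a log2 fold change of −1.56 ± 0.47 (SE; edgeR adjusted p = 0.0314). That call was lost without knockout male 1, 2 or 3 or wild-type male 2, with edgeR adjusted p values of 0.104, 0.0731, 0.0751 and 0.0640. Phlda3, which competes with AKT for membrane lipids, had 0.744, 1.10 and 0.848 CPM in knockout males against 1.55, 1.86 and 3.23 CPM in wild-type males. The libraries did not overlap, but with 10 to 15 counts per knockout library the log2 fold change of −1.30 ± 0.47 (SE) missed the threshold (edgeR adjusted p = 0.0614). It passed with DESeq2 (log2 fold change −1.43, adjusted p = 0.0119). In edgeR it passed with DESeq2's size factors (adjusted p = 0.0431), upper-quartile factors (adjusted p = 0.0453) or a filter of 1 CPM (adjusted p = 0.0375), and without wild-type male 1 or 2 (adjusted p = 0.0339 and 0.0470).

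Trp53 and Mdm2, the head of the pathway and its inhibitor, gave no call in males. Trp53 had 31.7, 41.4 and 35.6 CPM in knockout males against 15.9, 17.0 and 35.7 CPM in wild-type males, and wild-type male 3 alone lay inside the knockout range (log2 fold change 0.66 ± 0.29 (SE), edgeR adjusted p = 0.119). Without wild-type male 3, the library rich in lymphocyte markers, Trp53 was higher in knockout males (log2 fold change 1.02, edgeR adjusted p = 0.00995). That library also had the highest Mdm2, Ccng1, Btg2, Phlda3 and Gadd45a of the wild-type males. Mdm2 had 48.6, 41.5 and 33.1 CPM in knockout males against 20.1, 35.9 and 46.0 CPM in wild-type males, where the groups overlapped. The remaining brakes on growth overlapped too: Btg2, an antiproliferative cofactor of the CCR4-NOT complex, had 8.48 to 12.9 CPM in knockout and 3.79 to 16.5 CPM in wild-type males, and Gadd45a, which binds PCNA and the kinase CDK1, had 1.53 to 6.62 CPM in knockout and 2.91 to 4.69 CPM in wild-type males.

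**Figure D2:**
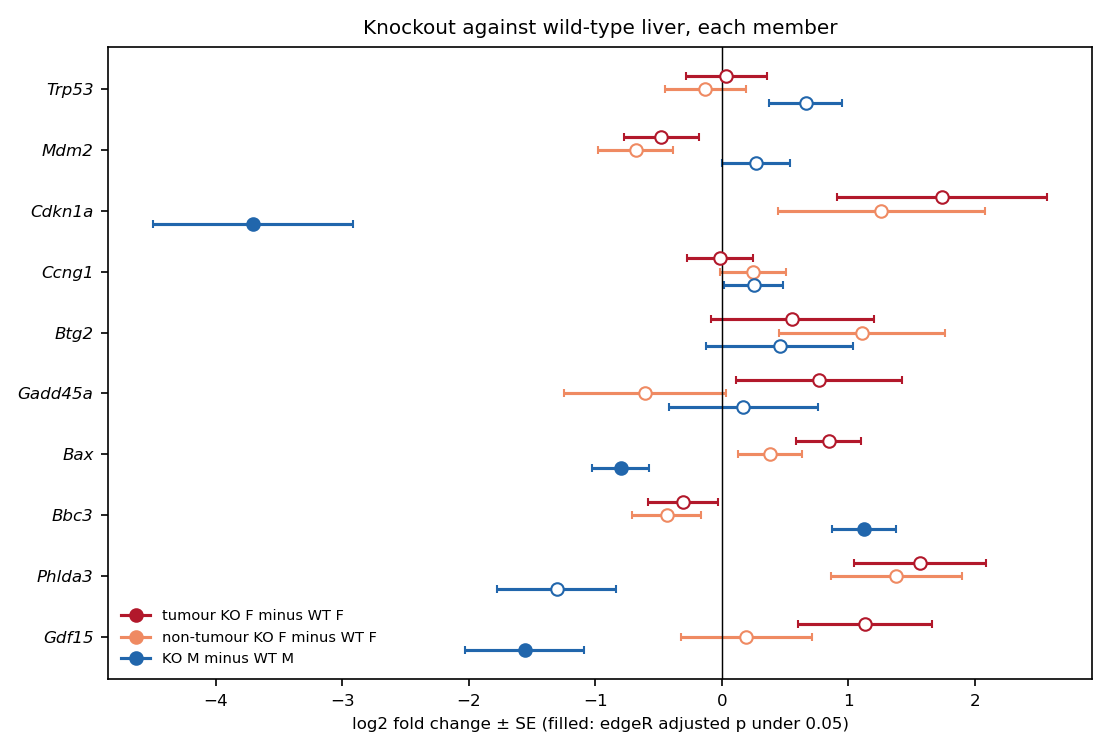
Log2 fold change with its SE (horizontal axis) of each of the 10 genes in tumour against wild-type females, non-tumour against wild-type females and knockout against wild-type males. Filled points have an edgeR adjusted p under 0.05, and they are Cdkn1a at −3.71, Bax at −0.80, Bbc3 at 1.12 and Gdf15 at −1.56, all in males. Both female comparisons share the 2 wild-type female libraries.

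The clock score moved with these male calls. Over the 14 libraries, the 5 with a score below 0 were the 3 wild-type males, non-tumour 1 and tumour 1, and these were also the 5 with the highest Cdkn1a, at 44.4 CPM or more against 33.8 CPM or less elsewhere. Non-tumour 1 and tumour 1 may come from the same mouse, which the labels do not say. Of 17 daily clock genes, 8 were called higher and 1 lower in knockout males, against 14.3% and 6.32% of all genes. Those higher included Bhlhe40, a repressor of the clock, at a log2 fold change of 2.31 ± 0.31, Cry2, another, at 2.25 ± 0.36 and the transcription factor Tef at 2.82 ± 0.48 (SE; edgeR adjusted p = 0.000264, 0.000730 and 0.00113). With the score as a covariate, none of the 10 genes was called, against 2.06% of all genes in that fit. For the 4 called without it, the log2 fold changes were −1.32 for Cdkn1a, −0.19 for Bax, 0.69 for Bbc3 and −0.18 for Gdf15, with edgeR adjusted p values of 0.275, 0.854, 0.442 and 0.936. Since the scores of knockout and wild-type males did not overlap, genotype and clock state cannot be told apart within males. In mouse liver Cdkn1a RNA is known to vary over the day.

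**Figure D3:**
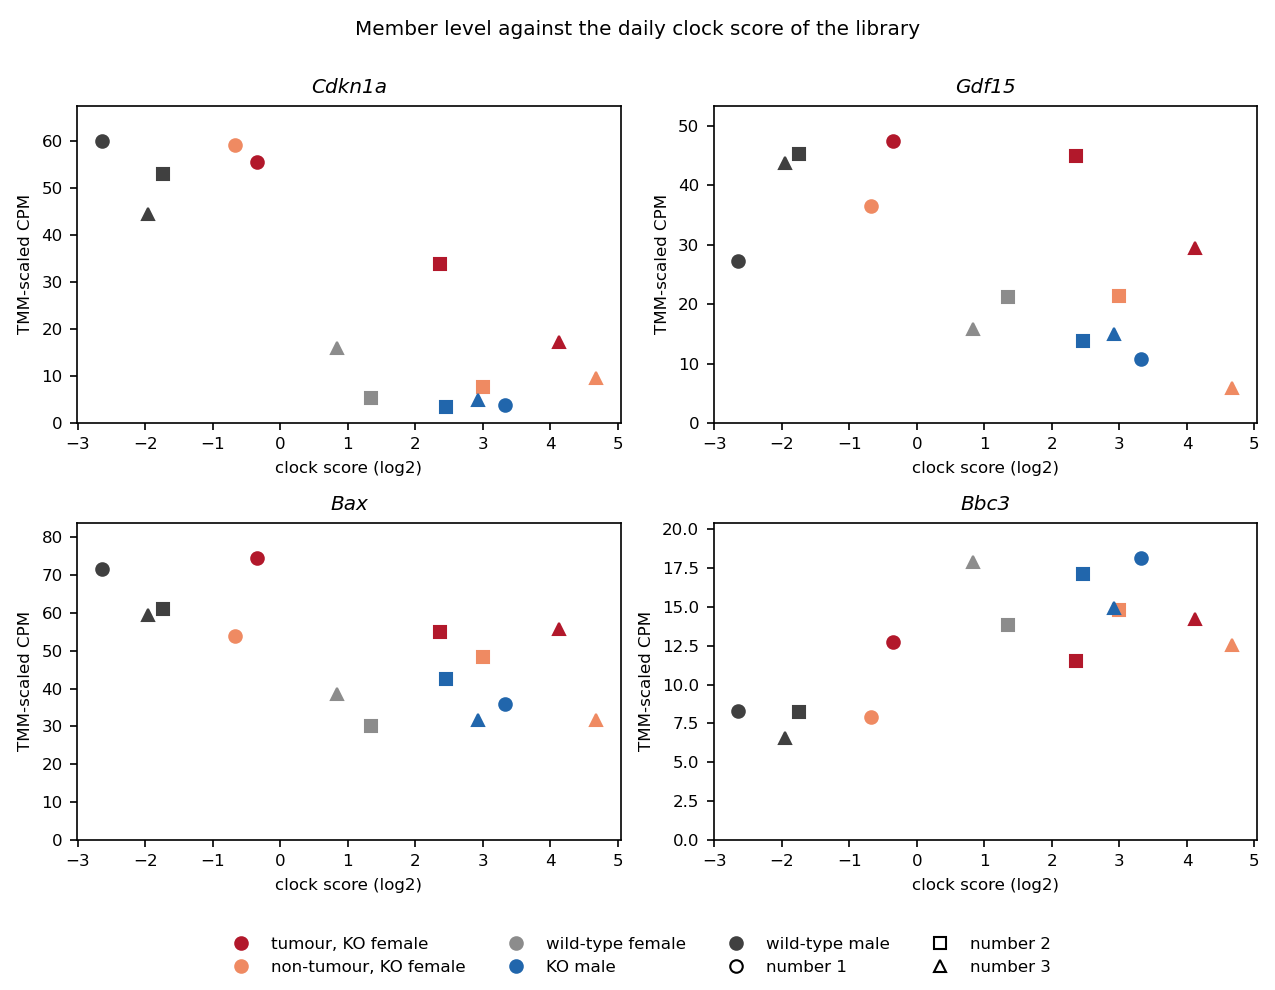
TMM-scaled CPM (vertical axis) of Cdkn1a, Gdf15, Bax and Bbc3 against the daily clock score in log2 units (horizontal axis) in the 14 libraries, coloured by group with symbols for the library number. The 5 libraries with a score below 0 hold the 5 highest Cdkn1a levels, 44.4 to 59.9 CPM, and knockout males, at scores of 2.46 to 3.32, hold the 3 lowest.

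In female livers none of the 10 genes passed the test in tumour or non-tumour tissue. Between non-tumour and wild-type females 0 of 10 were called, against 4.16% of all genes, and 2 of the 10 had an unadjusted p under 0.05, Phlda3 and Mdm2. Libraries of the groups did not overlap for 4 of the 10, against 49.7% of all genes. DESeq2 called 1 of 10, Phlda3 (log2 fold change 1.37, adjusted p = 0.0294), against 14.3% of the genes to which it gave an adjusted p. Between tumour and wild-type females 0 of 10 were called, against 9.61% of all genes. There Bax and Phlda3 had an unadjusted p under 0.05, and DESeq2 called both (log2 fold change 0.85 and 1.57, adjusted p = 0.0185 and 0.00864), against 18.2% of the genes to which it gave an adjusted p. Groups did not overlap for 5 of the 10, against 52.4% of all genes. In edgeR, Bax passed in tumour against wild type without non-tumour 1 or 3 or wild-type male 1 or 3, libraries that entered only the shared spread and scaling (adjusted p = 0.0485, 0.0311, 0.0461 and 0.0362). Phlda3 passed there without wild-type male 1, 2 or 3 (edgeR adjusted p = 0.0446, 0.0497 and 0.0327), Cdkn1a without non-tumour 1 (edgeR adjusted p = 0.0357) and Gdf15 without non-tumour 3 (edgeR adjusted p = 0.0386).

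Phlda3 gave the most even female pattern. It had 5.44, 5.21 and 5.78 CPM in tumour libraries 1, 2 and 3 and 5.61, 3.20 and 5.61 CPM in non-tumour libraries 1, 2 and 3, against 1.37 and 2.31 CPM in wild-type females 2 and 3. Every knockout female library was above both wild-type ones. The log2 fold change was 1.56 ± 0.52 in tumour (SE; edgeR adjusted p = 0.0698) and 1.38 ± 0.52 in non-tumour tissue (SE; edgeR adjusted p = 0.140), both against wild type. Bax had 74.6, 54.9 and 55.7 CPM in tumour and 54.0, 48.5 and 31.8 CPM in non-tumour libraries, against 30.2 and 38.5 CPM in wild-type females. Tumour libraries were above all 5 others, non-tumour ones overlapped wild type, and tumour against wild type gave a log2 fold change of 0.84 ± 0.26 (SE; edgeR adjusted p = 0.0531).

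Cdkn1a was widely spread within the female knockout groups. It had 55.5, 33.8 and 17.2 CPM in tumour and 59.1, 7.65 and 9.63 CPM in non-tumour libraries, against 5.30 and 15.9 CPM in wild-type females. The number 1 libraries of tumour and non-tumour tissue stood above the rest, and these were the female libraries with a clock score below 0. In the same pair, the neutrophil markers, led by Lcn2, which injured hepatocytes also make, summed to 1706 CPM in tumour 1 and 2330.3 CPM in non-tumour 1, against at most 239.6 CPM in the other female libraries. The part of either in the Cdkn1a level was not tested beyond the fits that follow. The log2 fold change of Cdkn1a was 1.26 ± 0.82 in non-tumour (SE; edgeR adjusted p = 0.414) and 1.74 ± 0.83 in tumour tissue (SE; edgeR adjusted p = 0.207), both against wild type. Without non-tumour 1 the first turned to −0.24. With the clock score as a covariate 3 of 10 genes passed between tumour and wild-type females, against 10.1% of all genes in that fit: Cdkn1a rose with a log2 fold change of 2.10, Bax with 0.95 and Gdf15 with 1.39 (edgeR adjusted p = 0.00915, 0.0161 and 0.0478).

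Gdf15 had 47.5, 44.9 and 29.4 CPM in tumour and 36.5, 21.3 and 5.83 CPM in non-tumour libraries, against 21.3 and 15.8 CPM in wild-type females. Tumour libraries were above both wild-type ones, and non-tumour libraries ran from below to above them. Mdm2 lay the other way, at 46.3, 42.9 and 35.9 CPM in tumour and 37.6, 40.3 and 30.7 CPM in non-tumour libraries, against 49.3 and 66.9 CPM in wild-type females, with no overlap and no call (log2 fold change −0.68 ± 0.29 (SE) in non-tumour tissue, edgeR adjusted p = 0.196). Btg2 had 8.84 to 29.8 CPM in tumour and 16.2 to 46.9 CPM in non-tumour libraries, against 11.8 to 17.9 CPM in wild-type females. Gadd45a was at 18.9 CPM in tumour 2 alone, with 2.68, 4.45 and 3.57 CPM in non-tumour libraries and 5.61 and 5.25 CPM in wild-type females; its log2 fold change in tumour against wild type, 0.77 ± 0.66 (SE), was −0.25 without that library. Trp53, Bbc3 and Ccng1 had log2 fold changes of no more than 0.5 in size against wild type in both tissues. Trp53 was at 36.7 to 49.1 CPM in tumour, 32.7 to 49.4 CPM in non-tumour and 36.1 to 48.5 CPM in wild-type females, and Bbc3 was at 11.5 to 14.2 CPM in tumour, 7.92 to 14.8 CPM in non-tumour and 13.8 to 17.9 CPM in wild-type females. Ccng1 was at 13.7 to 21.5 CPM in tumour, 21.2 to 22.2 CPM in non-tumour and 16.6 to 20 CPM in wild-type females.

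Markers of other cells differed between knockout and wild-type females beside these values. Over all genes 9.61% were called in tumour and 4.16% in non-tumour tissue, both against wild type. Of 14 macrophage and Kupffer cell markers 3 were called higher in both tissues, among them Csf1r, the receptor that macrophages need to survive, at 1.51 ± 0.28 in tumour and 1.26 ± 0.28 in non-tumour tissue (log2 fold change ± SE; edgeR adjusted p = 0.00549 and 0.0256). The list summed to 345 to 465 CPM in tumour and 317 to 572 CPM in non-tumour, against 134 to 157 CPM in wild-type female libraries. Of 14 cholangiocyte markers 3 were called higher and 1 lower in tumour, where Krt19, a keratin of bile duct cells, had a log2 fold change of 2.65 ± 0.74 (SE; edgeR adjusted p = 0.0402). None was called in non-tumour tissue. That list summed to 695 to 1400.2 CPM in tumour and 460.3 to 592 CPM in non-tumour, against 154 to 318 CPM in wild-type female libraries. The part of these markers in the levels of the 10 genes was not tested.

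Between tumour and non-tumour tissue of knockout females, 0 of the 10 genes were called, as were 0 of 17874 genes tested (0%), while 1217 genes had an unadjusted p under 0.05 in edgeR and DESeq2 called 29. Gadd45a alone of the 10 had an unadjusted p under 0.05, with a log2 fold change of 1.38 ± 0.59 (SE; edgeR adjusted p = 0.714), where tumour libraries 1, 2 and 3 had 3.77, 18.9 and 5.12 CPM. Without tumour 2 the log2 fold change was 0.31. Bax was the 1 gene of the set whose tumour libraries lay above all non-tumour ones, and 14% of all genes had groups that did not overlap. Gdf15 in tumour against non-tumour tissue had a log2 fold change of 0.94 ± 0.46 (SE; edgeR adjusted p = 0.776). Tumour and non-tumour libraries of equal number deviated in common, and blocking on that number gave 0 of 10 calls as well. Whether such a pair came from the same mouse is not in the labels.

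The knockout effect differed between the sexes for 4 of the 10 genes, 3 upwards and 1 downwards, against 10.9% of all genes (2.2% upwards and 8.68% downwards), when non-tumour minus wild-type females was set against knockout minus wild-type males in an interaction term. For Cdkn1a the female effect exceeded the male one by 4.97 ± 1.16 on the log2 scale (SE; edgeR adjusted p = 0.0200), for Phlda3 by 2.68 ± 0.70 (edgeR adjusted p = 0.0244) and for Bax by 1.18 ± 0.34 (edgeR adjusted p = 0.0395). For Bbc3 it was lower, at −1.56 ± 0.37 (edgeR adjusted p = 0.0163). Without wild-type female 3 none of the 4 was called, and without wild-type female 2 only Bbc3 was. Leaving out non-tumour 1 kept only Cdkn1a (log2 difference 3.56). The call for Bax was also lost without non-tumour 2, knockout male 1, knockout male 3 or wild-type male 1 (edgeR adjusted p = 0.0699, 0.0816, 0.0717 and 0.0521), and that for Phlda3 without knockout male 1 (edgeR adjusted p = 0.0573). Bax lost its call with the library number as a block (1.05, edgeR adjusted p = 0.0648) and Phlda3 in a fit of the compared groups alone (edgeR adjusted p = 0.0516). Gdf15 gained one with no low-count filter (edgeR adjusted p = 0.000411) or without non-tumour 3 (edgeR adjusted p = 0.00800). With the clock score as a covariate Cdkn1a alone was called, and the log2 differences of Phlda3 and Bbc3 were 2.62 and −1.26. Scores of knockout males, wild-type males and wild-type females did not overlap one another, so that fit cannot separate clock state from genotype and sex. Without wild-type male 3 Trp53 was called as well (log2 difference −1.10, edgeR adjusted p = 0.0412).

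A further comparison set the sexes side by side within a genotype. In wild type, 2 of 10 genes differed between males and females, against 23.1% of all genes, and groups did not overlap for 7 of the 10, against 48.9% of all genes. The clock scores of wild-type males and wild-type females did not overlap either, so sex and clock state cannot be told apart here. Bax was higher in wild-type males, at 71.6, 61.1 and 59.4 CPM, against 30.2 and 38.5 CPM in wild-type females (log2 fold change 0.90 ± 0.26 (SE), edgeR adjusted p = 0.0226). Bbc3 was lower in wild-type males, with 8.28, 8.23 and 6.56 CPM against 13.8 and 17.9 CPM in wild-type females (log2 fold change −1.05 ± 0.28 (SE), edgeR adjusted p = 0.0145). Cdkn1a in wild-type males lay wholly above wild-type females without a call (log2 fold change 2.30 ± 0.85 (SE), edgeR adjusted p = 0.0729), though DESeq2 called it at 2.43 (adjusted p = 0.00397). Both calls ended with the clock score as a covariate (edgeR adjusted p = 0.225 for Bax and 0.141 for Bbc3), and both ended without wild-type female 3 (edgeR adjusted p = 0.0627 and 0.202). That for Bax also ended without wild-type female 2 (edgeR adjusted p = 0.182) and that for Bbc3 without wild-type male 3 (edgeR adjusted p = 0.0571). The Bbc3 call ended too in a fit of the compared groups alone and with no low-count filter (edgeR adjusted p = 0.0744 and 0.0533), and Cdkn1a passed in the first of these (edgeR adjusted p = 0.0255). Without wild-type male 3, 3 more genes were lower in wild-type males, Trp53 (log2 fold change −1.22), Mdm2 (−0.91) and Btg2 (−1.70), with edgeR adjusted p values of 0.00459, 0.0333 and 0.0384.

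Among knockouts, male liver against non-tumour female liver gave 1 call of 10, Phlda3, against 0.392% of all genes. Phlda3 was lower in knockout males, with 0.744, 1.10 and 0.848 CPM, against 5.61, 3.20 and 5.61 CPM in non-tumour females (log2 fold change −2.42 ± 0.48 (SE), edgeR adjusted p = 0.0402). The groups did not overlap for 4 of the 10 genes, Phlda3 among them, against 19.8% of all genes. The call was lost in 9 of the 14 fits that left out a library, with an edgeR adjusted p of at most 0.230, and the log2 fold change there ran from −2.64 to −2.30. With the library number as a block its edgeR adjusted p was 0.0586, though the labels tie no male to a female of equal number.

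Across the 14 libraries, the genes of the set did not move as 1 block, given here as a description over libraries that share groups. The highest Pearson correlations of log2 CPM were Cdkn1a with Bax at 0.836, Bax with Gdf15 at 0.801 and Cdkn1a with Gdf15 at 0.765. Bbc3 had negative values with all 3, −0.797 with Cdkn1a, −0.615 with Gdf15 and −0.604 with Bax. Within groups, after subtracting each group's mean, Cdkn1a with Bax was 0.579, Bax with Gdf15 0.578 and Cdkn1a with Gdf15 0.503. Bbc3 within groups was at −0.572 with Cdkn1a and −0.564 with Gdf15, but at −0.041 with Bax. The highest value within groups was that of Phlda3 with Btg2, 0.787. Trp53 with Mdm2 was 0.628 over all libraries, while Trp53 with Cdkn1a was −0.410.

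Of 37 other p53 targets, 36 were tested, and in males 4 were called higher and 4 lower in knockout liver, a share near the 20.6% of all genes called there. They had a median log2 fold change of −0.13 against 0.11 over all genes. The 4 that fell were Sesn2, a sestrin that restrains mTORC1, at −1.07 ± 0.27, Tigar, a fructose bisphosphatase, at −0.98 ± 0.27, Ercc5, a repair nuclease, at −0.86 ± 0.21 and Ccnd2, cyclin D2, at −1.63 ± 0.51 (log2 fold change ± SE; edgeR adjusted p = 0.0117, 0.0178, 0.0108 and 0.0339). Those that rose included Ephx1, microsomal epoxide hydrolase, at 1.28 ± 0.37, Dcxr, a sugar reductase, at 1.24 ± 0.38, and Rps27l, a ribosomal protein relative, at 1.10 ± 0.26 (log2 fold change ± SE; edgeR adjusted p = 0.0253, 0.0331 and 0.00925). Psrc1, a spindle protein, was also called, at 0.303 ± 0.135 CPM in knockout males against 0 counts in every wild-type male. Its lowest knockout level, 0.149 CPM, was below a floor of 3 counts per wild-type male library (up to 0.215 CPM), so it has no bound on its fold. These 8 genes were named after their values were seen. With the clock score as a covariate 0 of the 36 were called in males, and without wild-type male 3 the counts were 3 higher and 3 lower.

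In females the same list gave 2 called higher and 2 lower in tumour and 1 in each direction in non-tumour tissue, all against wild type. These were shares near the 9.61% and 4.16% of all genes called in tumour and non-tumour tissue. Slc19a2, a thiamine carrier, had 40.2 ± 10.9 CPM in tumour and 59.2 ± 8.94 CPM in non-tumour, against 171 ± 48.2 CPM in wild-type females (mean ± SD, n = 3, 3 and 2). It fell in both, with a log2 fold change of −2.09 ± 0.30 in tumour and −1.53 ± 0.30 in non-tumour tissue (SE; edgeR adjusted p = 0.00106 and 0.0170). Plk2, a polo-like kinase, rose in tumour at 1.14 ± 0.26 and Trp53inp1, a stress-induced autophagy protein, fell at −1.35 ± 0.31 (log2 fold change ± SE; edgeR adjusted p = 0.0156 and 0.0156). Ephx1, which the nuclear receptor CAR also induces in liver, rose in tumour at 1.87 ± 0.44 and in non-tumour tissue at 1.90 ± 0.44 (log2 fold change ± SE; edgeR adjusted p = 0.0176 and 0.0292). Over the list the median was 0.10 (log2 fold change) in tumour and 0.05 in non-tumour tissue, against 0.03 and −0.00 over all genes.

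**Figure D4:**
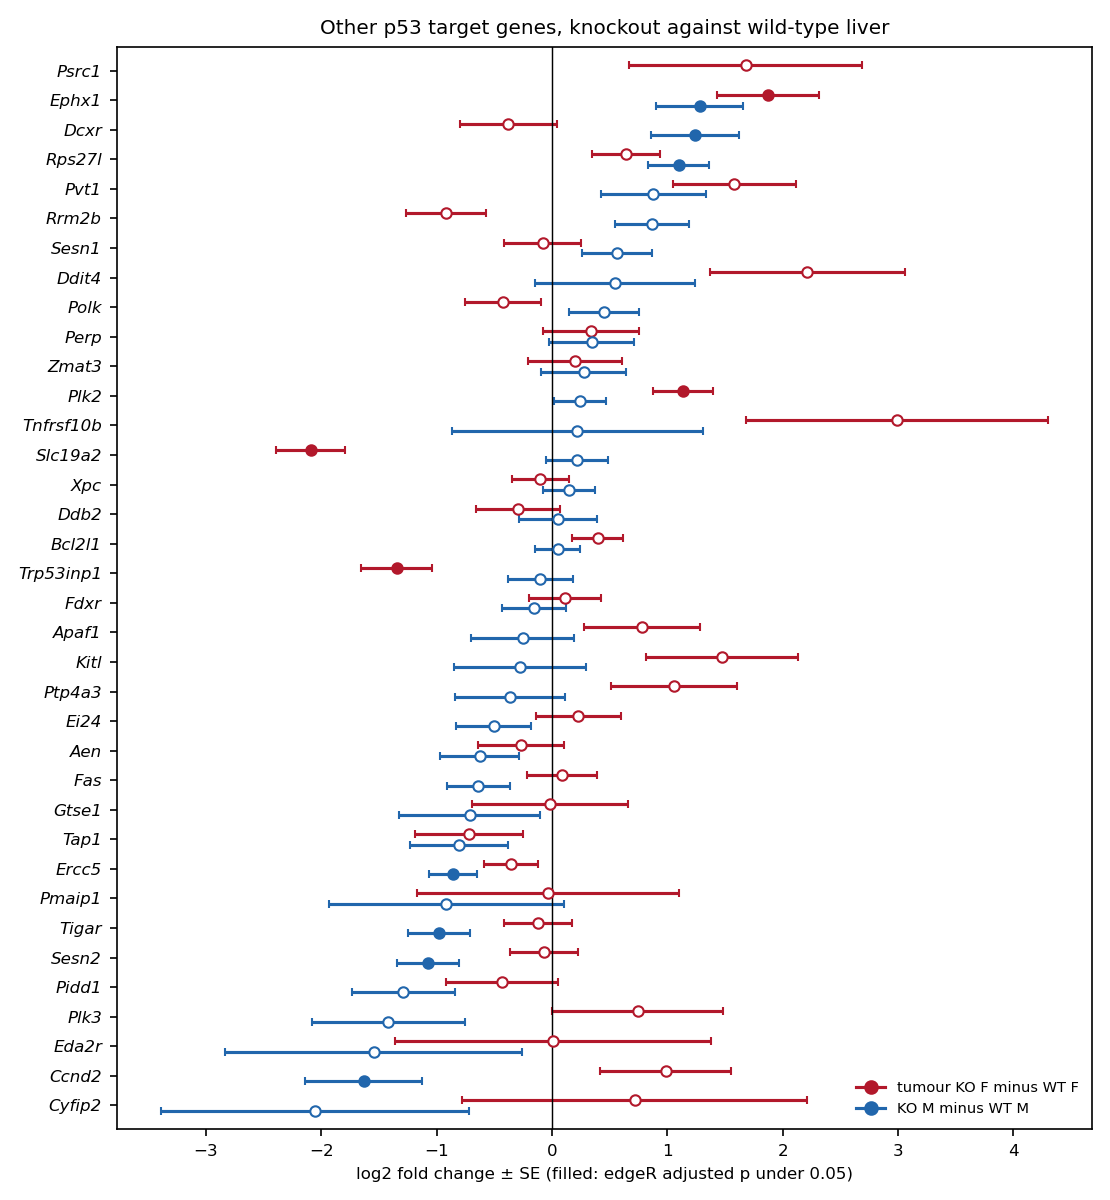
Log2 fold change with its SE (horizontal axis) of the 36 other p53 targets tested, in tumour against wild-type females and knockout against wild-type males, ordered by the male value. Filled points have an edgeR adjusted p under 0.05, and Ephx1 is the 1 gene filled in both, at 1.87 in tumour and 1.28 in males. The male point of Psrc1 is not drawn because wild-type males had 0 counts.

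Upstream of p53, 3 of 17 tested regulators and damage kinases were called in males, no larger a share than the 20.6% of all genes, and 0 in either female tissue against wild type. Chek2, a checkpoint kinase that phosphorylates p53, had a log2 fold change of −1.76 ± 0.54, Kat5, an acetyltransferase of p53, −0.97 ± 0.26, and Atm, the kinase that senses double-strand breaks, 1.67 ± 0.52 (SE; edgeR adjusted p = 0.0302, 0.0165 and 0.0348). Among 6 other CDK inhibitors Cdkn1b, which encodes p27, ran against Cdkn1a: it rose in knockout males at 1.12 ± 0.31 and fell in tumour at −1.20 ± 0.33 (log2 fold change ± SE; edgeR adjusted p = 0.0193 and 0.0360). Cdkn1b had 26.3 ± 2.37 CPM in knockout males, against 12.1 ± 6.74 CPM in wild-type males (mean ± SD, n = 3 each).

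Gadd45a and Btg2 gave no call, but 2 of their 7 relatives did. Over all genes 20.6% were called in males, 9.61% in tumour and 4.16% in non-tumour tissue, all against wild type. Gadd45b, a stress sensor kin to Gadd45a, rose in tumour at 1.71 ± 0.37 and in non-tumour tissue at 1.60 ± 0.37 and fell in knockout males at −1.58 ± 0.32 (log2 fold change ± SE; edgeR adjusted p = 0.0111, 0.0276 and 0.00315). Its levels were 42.6 ± 9.29 CPM in tumour, 39.2 ± 1.27 CPM in non-tumour and 12.9 ± 7.61 CPM in wild-type females, then 19.2 ± 4.01 CPM in knockout and 57.4 ± 17.6 CPM in wild-type males (mean ± SD, n = 3, 3, 2, 3 and 3). Tob1, of the same antiproliferative family as Btg2, went the other way, falling in tumour at −1.57 ± 0.34 and rising in knockout males at 1.74 ± 0.31 (log2 fold change ± SE; edgeR adjusted p = 0.0108 and 0.00160). For both genes the knockout effect differed between the sexes by the interaction term (edgeR adjusted p = 0.00137 for Gadd45b and 0.00213 for Tob1).

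Around Bax and Bbc3, 2 of 14 BCL2 family genes were called higher and 1 lower in knockout males, a share near the 20.6% of all genes. Bik, a BH3-only killer, fell at −1.83 ± 0.35 and Bid, which links death receptors to Bax, rose at 0.85 ± 0.25 (log2 fold change ± SE; edgeR adjusted p = 0.00256 and 0.0265), Bid being named after its value was seen. Hrk, another BH3-only gene, had 11 to 27 counts in knockout male libraries and 0 in all wild-type male libraries, at least 3.74-fold higher against a floor of 3 counts per library. In tumour against wild type Bok, a Bax relative, was the 1 gene called, at 1.14 ± 0.32 (log2 fold change ± SE; edgeR adjusted p = 0.0372). The family's median log2 fold change in males was 0.15, against 0.11 over all genes.

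The integrated stress response, which also induces Gdf15, is read from genes of amino acid synthesis and of stress signalling. Of 14 tested genes of the integrated stress response 0 were called higher and 4 lower in knockout males, where 20.6% of all genes were called. Their median log2 fold change was −0.93 against 0.11 over all genes. The 4 called included Sesn2, given above, and Ppp1r15a, the phosphatase subunit GADD34, at −0.92 ± 0.24 (SE; edgeR adjusted p = 0.0126). The other 2, Asns and Phgdh, were named after their values were seen. Asns, which makes asparagine, had 0, 0.146 and 0.0565 CPM in knockout males against 0.453, 5.15 and 1.21 CPM in wild-type males. Phgdh, which starts serine synthesis, had at most 0.585 CPM in knockout males and 1.29, 0.215 and 36.1 CPM in wild-type males, so wild-type male 3 stood far above. Without that library the counts were 1 higher and 3 lower. Against wild-type females the same list gave 2 called higher and 0 lower in tumour, where 9.61% of all genes were called. Its median log2 fold change there was 1.55 (1.47 with Asns, listed at 0 counts in wild-type females, at its bound). In non-tumour tissue against wild type 1 was called higher and 0 lower, where 4.16% of all genes were called. The median there was 0.35 (0.15 at the bound). Atf3, a stress-induced transcription factor, rose in tumour at 2.13 ± 0.55 and in non-tumour tissue at 2.04 ± 0.55 (log2 fold change ± SE; edgeR adjusted p = 0.0254 and 0.0483). With the clock score as a covariate 0 of the 14 were called in males. In males without that covariate, 2 of 18 immediate early genes were called higher and 2 lower, a share near the 20.6% of all genes. They were led by Zfp36, an RNA-decay factor, at 2.32 ± 0.39 and Nr4a1, an orphan receptor, at −2.14 ± 0.45 (log2 fold change ± SE; edgeR adjusted p = 0.00113 and 0.00467).

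Of 25 proliferation genes, which p21 restrains, 1 was called lower in knockout males, where 20.6% of all genes were called. It was E2f8, a repressor of E2F targets. The list median was −1.34 (log2 fold change), against 0.11 over all genes. The list summed to 52.2 to 86.5 CPM in knockout males, against 62.5, 39.9 and 373 CPM in wild-type males 1, 2 and 3. Without wild-type male 3, 3 of them were called higher and 1 lower, where 4055 of 17604 genes were called. E2f8 fell in all knockout groups against their wild type, at −3.83 ± 0.56 in tumour, −3.99 ± 0.57 in non-tumour tissue and −1.89 ± 0.50 in males (log2 fold change ± SE; edgeR adjusted p = 0.00142, 0.00329 and 0.0151). Of 16 senescence associated genes tested, 1 was called in males, Cxcl1, a neutrophil chemokine, which rose at 2.81 ± 0.39 (log2 fold change ± SE; edgeR adjusted p = 0.000331), and 0 in either female tissue. Over all genes the shares called were 20.6% in males, 9.61% in tumour and 4.16% in non-tumour tissue, all against wild type.

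Cell type markers beside the male values were as follows, where 20.6% of all genes were called. Of 10 endothelial markers 5 were called lower in knockout males, among them Clec4g, of sinusoidal cells, at −1.27 ± 0.25 and Pecam1, the adhesion molecule CD31, at −1.18 ± 0.30 (log2 fold change ± SE; edgeR adjusted p = 0.00328 and 0.0130), and the list summed to 160.2 to 212 CPM in knockout and 273 to 392 CPM in wild-type males. Of 11 hepatocyte markers 1 was called higher, Ass1, an enzyme of the urea cycle, at 2.14 ± 0.53 (log2 fold change ± SE; edgeR adjusted p = 0.0113). Of 14 cholangiocyte markers 1 was called higher and 2 lower, of 14 macrophage markers 1 was called higher, and of 12 stellate cell, 10 lymphocyte and 7 neutrophil markers tested 0 were called. The neutrophil list summed to 74.8 to 89.7 CPM in knockout and 39.9 to 91.3 CPM in wild-type males, the stellate list to 147 to 355 CPM in knockout and 217 to 322 CPM in wild-type males, and the cholangiocyte marker Cftr was at 0 in wild-type males. The part of these markers in the male calls was not tested.

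The genes whose levels ran most like Cdkn1a over the 14 libraries were sought among 12614 protein-coding genes with a mean of at least 1 CPM. Tsen54, a subunit of the tRNA splicing endonuclease, came first with a Pearson r of 0.902, then Dennd5a, a Rab exchange factor, with 0.897, Dus2, a tRNA-modifying enzyme, with 0.894, Spon2, a secreted matrix protein, with 0.889 and Pitpnm1, a lipid transfer protein, with 0.888. Within groups their r was 0.579, 0.668, 0.703, 0.638 and 0.586. Spon2 averaged 30.3 CPM in tumour, 17.1 CPM in non-tumour and 12.0 CPM in wild-type females, with 6.47 CPM in knockout and 67.8 CPM in wild-type males. None of the other 9 genes of the set was among these 5.

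Some of the counts may be shared with neighbours, since the sources used here do not say whether counting used strand. Cdkn1a overlaps AC167363.2 on the opposite strand, which had 0 to 19 counts per library, and Bax overlaps Gm45808, which had 0 to 3. Gadd45a overlaps E230016M11Rik on the opposite strand, with 3 to 114 counts against 27 to 395 of its own, so reads of that pair cannot be told apart without strand.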

How the data were processed

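Whole-liver RNA of 14 mouse tissue samples had been extracted with Trizol and sequenced as paired ends, per the labels' protocols. The deposited table holds raw counts per gene, which the authors made with HISAT2 2.0.5 and featureCounts 1.5.0-p3 on GRCm38, per the submitters' processing notes. The FPKM values the authors deposited beside them were not used. Counts were tested with edgeR 4.0.16 (R 4.3.3): TMM scaling, edgeR's filter on low counts over the 5 groups, which left 17874 of 54532 genes, and a robust quasi-likelihood fit of all 14 libraries, so that all groups share 1 estimate of the spread. Standard errors were derived from the F statistic, as the size of a log2 fold change over the root of F. Adjusted p is Benjamini-Hochberg over all 17874 genes in each of 7 comparisons, with a threshold of 0.05. Log2 CPM, which enter the clock score and the correlations, use a prior count of 2, and log2 fold changes came from the fits without it. Libraries held 14745140 to 19480538 counts, with a common biological coefficient of variation of 0.442. The steps were tested on simulated data: of 200 genes changed 4-fold between the male groups 56.5% were recovered, and of those changed 2-fold 0%. In the 2-fold run 100% of the calls were false. Only 200 of 17874 genes were changed there, while 20.6% were called between the male groups of the data. Recovery in the data may therefore differ from these shares. Tumour and non-tumour libraries of equal number correlated in their deviations from the group means (r = 0.472, 0.367 and 0.320 over 10229 genes), so a fit with that number as a block was added. The labels tie no male to a female of equal number, so across the sexes the block has no known meaning. Of the genes other than the 10, those past the threshold were named, at most 3 per list by smallest p, and any beyond that were named after their values were seen. The 10 genes and the other 17 lists were chosen with earlier results of these data known. The lists cover other p53 targets, p53 regulators, CDK inhibitors, GADD45 and BTG relatives, BCL2 family, stress response, immediate early, proliferation, senescence and clock genes, and markers of liver cell types. Alternatives were DESeq2 1.42.0, other scalings and filters, the compared groups alone, the block, each library left out, the clock score as a covariate and both number 1 libraries of knockout females left out. Counting the other lists again in the last of these, with the clock score and without wild-type male 3 was chosen after seeing the data. Promoters came from RefSeq (GRCm38.p6).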

Additional observations from a re-analysis of the deposited data

Results flagged for a closer look

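In 4 of the 10 genes the knockout effect of females, non-tumour minus wild type, differed from that of males, knockout minus wild type, by the interaction term in edgeR. The log2 difference was 4.97 for Cdkn1a, 1.18 for Bax, −1.56 for Bbc3 and 2.68 for Phlda3. Non-tumour 1 and the 3 wild-type males, the libraries with a clock score below 0 that enter this comparison, had the highest Cdkn1a of the libraries in it. With the score as a covariate the log2 difference of Cdkn1a was 2.68 and kept its call in edgeR. The other 3 genes lost their calls, at 2.62 for Phlda3, −1.26 for Bbc3 and 0.70 for Bax (edgeR adjusted p = 0.0927, 0.116 and 0.258). The scores of knockout males, wild-type males and wild-type females did not overlap one another. This fit therefore cannot separate clock state from genotype and sex. Over all genes 574 were called in that fit, against 1945 without the score. No group reached 4 libraries, so single libraries were not screened for outlying values.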

How the results depend on the processing

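Of the 10 genes, the counts called in 7 comparisons moved by over 1.5 times as follows. The counts over all genes moved as well, as given at the end, so a change need not be particular to the 10 genes. With no low-count filter, 2 were called in non-tumour and 2 in tumour against wild-type females, 4 in wild-type males against females and 3 in knockout males against non-tumour females. DESeq2 called 1, 2 and 2 in non-tumour, tumour (both against wild type) and knockout males against non-tumour females. In tumour against wild type, a filter of 1 CPM called 1 and a fit of the compared groups alone 2. With the clock score as a covariate, 3 were called in tumour against wild type, 0 in knockout against wild-type males, 1 in the difference between the sexes, 0 in wild-type males against females and 0 in knockout males against non-tumour females. Without both number 1 libraries of knockout females the difference gave 1 and knockout males against non-tumour females 0. With the replicate number as a block, knockout males against non-tumour females gave 0, and the call for Bax in the difference was lost (1.05, edgeR adjusted p = 0.0648). The block changed no other call of the 10 genes. Smaller changes were 5 called in knockout against wild-type males under DESeq2, other scalings or a filter of 1 CPM, 5 in the difference with no filter and 3 with the compared groups alone, and 3 in wild-type males against females under DESeq2 or without both number 1 libraries of knockout females. Leaving out 1 library gave 0 to 5 in the difference, 0 to 2 in tumour and 0 to 0 in non-tumour against wild type, 0 to 0 in tumour against non-tumour, 2 to 5 in knockout against wild-type males, 0 to 4 in wild-type males against females, and 0 to 1 in knockout males against non-tumour females. Log2 fold changes reversed for Cdkn1a in non-tumour tissue, −0.24 without both number 1 libraries and −0.24 to 2.31 leaving out 1, for Gadd45a in tumour, −0.25 to 1.14, and for Btg2 in the difference, −0.17 to 1.11. None of these was called, and the cause was not tested. Over all genes, knockout against wild-type males gave 3688 calls, between 368 with the clock score and 4582 with DESeq2, and tumour against wild type gave 1718, between 157 without wild-type female 3 and 3030 with DESeq2. Of non-tumour against wild type, 743 were called, between 17 without wild-type female 3 and 1942 with DESeq2. Of all genes, 70 were called in knockout males against non-tumour females, and 700 with no low-count filter. The difference between the sexes gave 1945 calls, between 574 with the clock score and 3039 with DESeq2. Wild-type males against females gave 4137, and 5104 with DESeq2. With 2 wild-type females and a common biological coefficient of variation of 0.442, no 2-fold change of the simulated data was recovered in females. Only 200 of 17874 genes were changed there, a smaller share than was called in the data.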
